A study of Mus musculus with 4 samples.

Results

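The genes described here are 10 metabolic enzymes that form 5 pairs of a somatic and a germ-cell isozyme, chosen by symbol from the 55450 genes in the deposited feature lists. The pairs are Pgk1 and Pgk2, Gapdh and Gapdhs, Ldha and Ldhc, Pdha1 and Pdha2, and Cycs and Cyct, and all 10 symbols were found. They were followed through single-cell RNA libraries of dissociated mouse testis (10x Chromium 3′ chemistry, version 3), 2 of high-fat-diet mice (HFD 1 and HFD 2) and 2 of mice fed normally (normal diet, ND 1 and ND 2). The comparison in the series is that of testis cells between the diets. The labels give no strain, age, feeding time or batch. Nor do they tie libraries to separate mice, so p-values measure only the spread between these libraries, which may be technical.

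Developing germ cells carry their own versions of several housekeeping enzymes. Phosphoglycerate kinase (PGK) and glyceraldehyde-3-phosphate dehydrogenase (GAPDH) work side by side in the later steps of glycolysis, lactate dehydrogenase (LDH) interconverts pyruvate and lactate, pyruvate dehydrogenase (PDH) feeds pyruvate into the mitochondrion, and cytochrome c carries electrons between respiratory complexes. Pgk1 and Pdha1 lie on the X chromosome, which is silenced in male germ cells during meiosis, while Pgk2 and Pdha2 are intronless autosomal copies of them. Spermatocytes use lactate supplied by Sertoli cells, and the sperm tail runs glycolysis on the fibrous sheath, where the Gapdhs protein is bound.

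On build GRCm38, Pgk1 lies at chrX:106187100-106203699 (+) and Pgk2 at chr17:40207015-40208640 (−). Gapdh lies at chr6:125161715-125166467 (−) and Gapdhs at chr7:30729775-30743681 (−). Ldha, at chr7:46841475-46855627 (+), ends 5576 bases before Ldhc starts, at chr7:46861203-46878142 (+). Pdha1 lies at chrX:160122209-160138413 (−) and Pdha2 at chr3:141210004-141212355 (−). Cycs lies at chr6:50562563-50566538 (−) and Cyct at chr2:76353942-76360450 (−). All 10 are annotated as protein coding.

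The promoters of 2 pairs are shown. Pgk1 and Pgk2 are a parent gene and its copy on different chromosomes, and Ldha and Ldhc are neighbours whose levels were both highest in pachytene-like cells in these libraries. RefSeq (GRCm38.p6) gives for each start site a window of 250 bases before to 50 after it. Ldha and Ldhc have 2 such windows each, and the first listed is shown. Printed are the bases before that site, with at most 30 bases of annotated exon at the end. Capitals mark matches, on either strand, to a cAMP response element (TGACGTCA, or its short form TGACG), a GC box with the letters GGGCGG, one of the boxes named CCAAT for their letters, or a TATA box with the letters TATAAA. The windows are chrX:106186850-106187099 (+) for Pgk1, chr17:40208611-40208859 (−) for Pgk2, chr7:46845554-46845803 (+) for Ldha and chr7:46861013-46861232 (+) for Ldhc.
Pgk1: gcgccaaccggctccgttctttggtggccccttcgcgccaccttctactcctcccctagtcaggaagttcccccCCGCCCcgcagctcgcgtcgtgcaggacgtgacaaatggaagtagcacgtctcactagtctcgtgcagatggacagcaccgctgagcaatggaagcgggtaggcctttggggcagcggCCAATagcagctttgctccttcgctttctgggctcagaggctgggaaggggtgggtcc
Pgk2: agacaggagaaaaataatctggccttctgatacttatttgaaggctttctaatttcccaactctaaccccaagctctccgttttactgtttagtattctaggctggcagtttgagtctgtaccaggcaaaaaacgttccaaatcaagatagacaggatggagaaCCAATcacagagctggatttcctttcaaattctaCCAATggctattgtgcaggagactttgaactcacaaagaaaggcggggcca
Ldha: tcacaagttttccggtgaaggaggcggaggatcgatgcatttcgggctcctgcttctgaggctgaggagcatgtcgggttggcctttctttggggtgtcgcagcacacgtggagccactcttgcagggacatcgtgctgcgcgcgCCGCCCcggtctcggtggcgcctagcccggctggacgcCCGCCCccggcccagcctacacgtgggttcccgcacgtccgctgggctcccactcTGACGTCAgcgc
Ldhc: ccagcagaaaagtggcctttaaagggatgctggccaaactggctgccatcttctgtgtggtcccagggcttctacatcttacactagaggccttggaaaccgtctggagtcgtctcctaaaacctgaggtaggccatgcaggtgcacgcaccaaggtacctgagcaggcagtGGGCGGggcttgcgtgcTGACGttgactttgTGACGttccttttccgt

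The full 300-base window of Pgk1 held 5 GC boxes and 24 CpG dinucleotides, and that of Pgk2 held 0 GC boxes and 4 CpGs. Both held CCAAT boxes, 1 in Pgk1 (58 bases before the start site) and 2 in Pgk2 (86 and 52 bases before it). The Ldha window shown held 3 GC boxes and a full cAMP response element 12 bases before the start site. This element contains the short form on both strands. The second Ldha window held 0 full elements, 1 short form, 0 GC boxes and 13 CpGs. The Ldhc window shown held the short form at 61 and 47 bases before the start site and a GC box at 78 bases before it. The second Ldhc window held 0 of these. Of all 32851 RefSeq promoter windows of the same length, 1.79% held TGACGTCA, 20.8% TGACG, 35.7% GGGCGG, 37.4% CCAAT and 13.6% TATAAA. Across the pairs, the first listed windows of the somatic members held 12 to 32 CpGs and those of the germ-cell members 4 to 9, against a median of 7 (quartiles 3 and 20) over all windows. A match is a run of letters and not evidence that a factor binds there.

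The libraries held 13561 to 15290 barcodes, where the labels state about 13000 recovered cells each, and 143748262 to 154221188 unique molecular identifiers (UMIs). After filtering and removal of called doublets 55067 cells remained, with a median of 5517 to 5928 UMIs per library, and pairs of libraries shared 42 to 65 barcodes (0.31% to 0.465%). Clustering without the 10 isozymes gave 36 clusters. Marker lists named 8 germ-cell and 5 somatic classes with 36892 cells, each called by its likeness, and a double name means that both marker lists scored alike. The other 18175 cells (33.0%) stayed unnamed, with library medians of 1606 to 2200 UMIs. Most were in clusters of low depth that also had no own marker among their 10 top genes. Every named class had at least 8 of its own markers detected, at 10 CPM or more. An unnamed cluster of 5159 cells had 12 of 12 markers of its best list detected, so this count alone does not set named clusters apart. Levels are UMI counts scaled to a common total per class and library (CPM), given as the mean over 4 libraries with their range. They were not divided by gene length, since the 3′ method counts transcript ends. Classes are sets of clustered cells, so differences between them are described without a test.

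Among the germ-cell isozymes, 3 schedules were seen. Cyct and Pdha2, the mitochondrial pair members, were highest in early-spermatocyte-to-pachytene-like cells (2147 cells), Ldhc was highest in pachytene-like cells (4206 cells), and Pgk2 and Gapdhs were highest in elongating-spermatid-like cells (9302 cells). The plot of levels by class shows these peaks library by library. Pgk2 and Gapdhs were highest in elongating-spermatid-like cells under each alternative clustering and cell filter run, whereas the peaks of the other 3 genes moved to a neighbouring class under some. Cyct and Pdha2 were highest in early-spermatocyte-like cells with doublets kept, at Leiden resolution 2 and with the isozymes among the clustered genes. In these settings that class had 13034 to 13327 genes tested, against 10052 in the main one, so it did not hold the same cells. Whether the peak or the border of the class moved was not tested. Ldhc was highest in pachytene-to-division-like cells with doublets kept, with a mitochondrial limit of 10% and at resolution 0.5. The pachytene-like class was not among the 10 classes tested at resolution 0.5, so that setting cannot be read as a move.

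**Figure D1:**
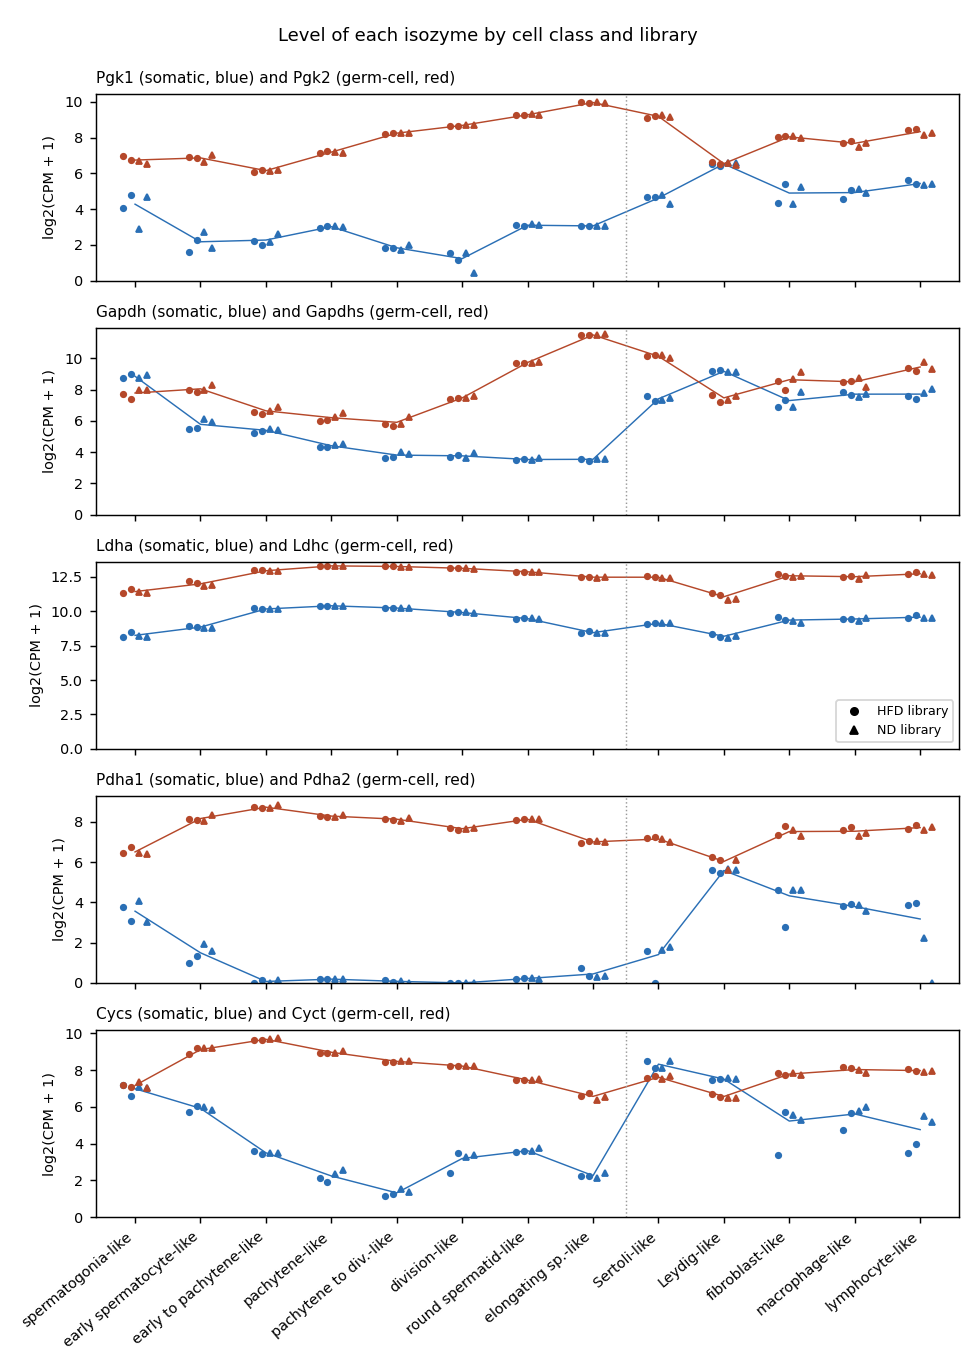
Level of each isozyme, as log2(CPM + 1), in 13 cell classes. Each point is 1 library (circles HFD, triangles ND), lines join the class means, red is the germ-cell and blue the somatic isozyme, and the dotted line divides germ-cell from somatic classes. Pgk2 and Gapdhs climb to 1001 and 2889 CPM in elongating-spermatid-like cells, while Ldha lies below Ldhc in every class and drops further from pachytene-like to elongating-spermatid-like cells (3.88-fold against 1.77-fold).

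Cyct, the testis cytochrome c, stood at 142 CPM (129 to 162) in spermatogonia-like cells and at 551 CPM (460 to 588) in early-spermatocyte-like cells. It reached 814 CPM (787 to 854) in early-spermatocyte-to-pachytene-like cells and was 8.69-fold lower in elongating-spermatid-like cells, at 93.6 CPM (81.6 to 106). The ranges of its peak class and of both neighbouring classes did not overlap. The early-spermatocyte-like class was mixed, however: 1 of its sub-clusters (203 of 886 cells) held 899 CPM of Cyct (825 to 1018), above the mean of the peak class, and the other 3 held 156 to 270 CPM. The mean over single cells of that class was 378 CPM. Pdha2, the intronless PDH subunit, took a similar course at lower levels, from 89.6 CPM (82.4 to 105) through 421 CPM (405 to 455) to 127 CPM (123 to 129). It stood at 391 CPM (344 to 422) in that same sub-cluster, which overlaps the peak class, and at 146 to 207 CPM in the other 3. Its level in round-spermatid-like cells, 278 CPM (274 to 281), overlapped that in pachytene-to-division-like cells, also 278 CPM (266 to 292).

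Ldhc, the germ-cell LDH subunit, was the most abundant of the 10 in every class. It stood at 2764 CPM (2594 to 3128) in spermatogonia-like cells and at 10096 CPM (9965 to 10262) in pachytene-like cells, 3.65-fold higher. Its level then stepped down through 9807, 8939 and 7494 CPM to 5713 CPM (5580 to 5833) in elongating-spermatid-like cells, and none of these neighbouring ranges overlapped.

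Pgk2, the kinase that yields ATP in glycolysis, was lowest in early-spermatocyte-to-pachytene-like cells at 70.3 CPM (67.4 to 72.1). From there it was higher at each following stage: 145, 304, 411 and 622 CPM, then 1001 CPM (991 to 1011) in elongating-spermatid-like cells, 14.2-fold above the lowest class (13.8 to 14.99 in single libraries). No pair of neighbouring ranges in this series overlapped. Gapdhs, the sheath-bound dehydrogenase, stayed low for longer. It stood at 59.0 CPM (51.1 to 75.7) in pachytene-to-division-like cells, 176 CPM (165 to 188) in division-like cells and 850 CPM (837 to 881) in round-spermatid-like cells. In elongating-spermatid-like cells it reached 2889 CPM (2838 to 2988), 48.9-fold above its lowest class (39.5 to 55.6).

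Clusters within the spermatid classes differed in these 2 genes as well. The 4 round-spermatid-like clusters spanned 344 to 1366 CPM of Gapdhs and 507 to 696 CPM of Pgk2. Of the elongating-spermatid-like clusters, 1 with 1901 cells held 6519 CPM of Gapdhs and 1682 CPM of Pgk2. Another, with 874 cells, held the highest Pgk2 of any cluster in these classes, 2245 CPM, with 657 CPM of Gapdhs. The median depth of that last cluster was 1986 UMIs, the lowest of the elongating-spermatid-like clusters. Ldhc in these same clusters stood at 4243 and 5899 CPM.

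Low levels of Pgk2 and Gapdhs outside the spermatids were set beside the background, since in droplet libraries free RNA adds UMIs of abundant genes to all cells. As a measure of it, 14 elongating-spermatid markers were summed. These markers stood at 24.4% of their whole-testis level in spermatogonia-like cells, 10.6% in early-spermatocyte-to-pachytene-like cells and 7.80% in pachytene-like cells. Pgk2 stood at 24.2%, 16.0% and 33.1% of its own whole-testis level in the same classes, and Gapdhs at 31.3%, 14.1% and 10.4%. In pachytene-like cells Gapdhs was thus close to the spermatid markers and Pgk2 stood above them. In spermatogonia-like cells Ldhc, Pdha2, Cyct and Ldha stood at 34.0%, 33.4%, 44.7% and 33.8% of their whole-testis levels, against 24.4% for these markers. Folds from that class, as for Ldhc above and Ldha below, may include free RNA. How much of any of these levels was free RNA was not tested.

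The somatic isozymes divided into 4 genes that were low from meiosis onward and 1, Ldha, that was not. Gapdh stood at 460 CPM (429 to 501) in spermatogonia-like cells, 53.9 CPM (43.0 to 67.5) in early-spermatocyte-like cells and 10.54 CPM (10.1 to 11.3) in round-spermatid-like cells. Its level in spermatogonia-like cells was thus 8.53-fold that of the next stage (6.39 to 11.2 in single libraries) and 43.7-fold that of round-spermatid-like cells. Spermatogonia-like cells were few, 214 in all. The level of Gapdh is uncertain in all classes because 88.0% of the 60-base windows in the last 500 bases of its transcript recur in 105 other annotated genes. These genes held 9830 UMIs against 15015 for Gapdh. Most of them, 8085, belonged to Gm6981, which shares only 22 of the 441 windows. The copy that shares the most, Gm7336 with 388 windows, held 0 UMIs. Of the other 9 isozymes, Pgk1 shared 5.22% of its windows, with 3 genes that held 0 UMIs, and the rest shared none.

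Cycs, the somatic cytochrome c, stood at 125 CPM (94.1 to 142) in spermatogonia-like cells and stood lower at each stage, through 59.3, 10.3 and 3.71 CPM to 1.49 CPM (1.23 to 1.83) in pachytene-to-division-like cells. That is an 84.3-fold difference of means (69.2 to 115 in single libraries). It stood higher again in division-like cells, at 8.09 CPM (4.27 to 10.2), and in round-spermatid-like cells, at 11.2 CPM (10.4 to 12.5), with no overlap with the lowest class. In elongating-spermatid-like cells it was back at 3.76 CPM (3.35 to 4.26).

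Pgk1 and Pdha1, the X-linked members, were scarce in all germ-cell classes. Pgk1 stood at 18.4 CPM (6.33 to 26.3, 21 UMIs) in spermatogonia-like cells. It held 1.34 to 7.10 CPM in the 5 classes from early-spermatocyte-like to division-like cells, and 7.57 CPM (7.22 to 7.88) in round-spermatid-like cells. Pdha1 stood at 10.8 CPM (7.17 to 15.8, 13 UMIs) in spermatogonia-like cells and at 0.139 CPM in pachytene-like cells. In division-like cells it had 0 UMIs, which allows a level of up to 0.130 CPM, the value of 3 UMIs over the 4 libraries. The transcript end of Pdha1 overlaps Map3k15 on the opposite strand, which held 60 UMIs against 513 for Pdha1. That of Gapdh overlaps Iffo1, also on the opposite strand, which held 16886 UMIs, and Gapdhs overlaps the antisense genes Tmem147os (1435 UMIs) and Gm26935 (325 UMIs). Whether the counting used strand is not given in the sources used here, so these levels are uncertain to that extent.

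Expression from the whole X chromosome gave the frame for this pair. Genes on X (2614 in the annotation) took 1.58% of UMIs in spermatogonia-like cells, 0.506% in early-spermatocyte-like cells and 0.0509% in pachytene-to-division-like cells. The share was 0.392% in division-like, 1.26% in round-spermatid-like and 1.36% in elongating-spermatid-like cells. Pdha1 did not come back with it, at 0.164 CPM in round-spermatid-like cells, which is 286-fold below Leydig-like cells (235 to 336 in single libraries). Pgk1 took another course. Its 7.10 CPM (6.68 to 7.46, 759 UMIs) in pachytene-like cells overlapped its level in round-spermatid-like cells, although the X share there was 0.0541%. An unnamed cluster of 5159 cells held 17.7 CPM of Pgk1.

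**Figure D2:**
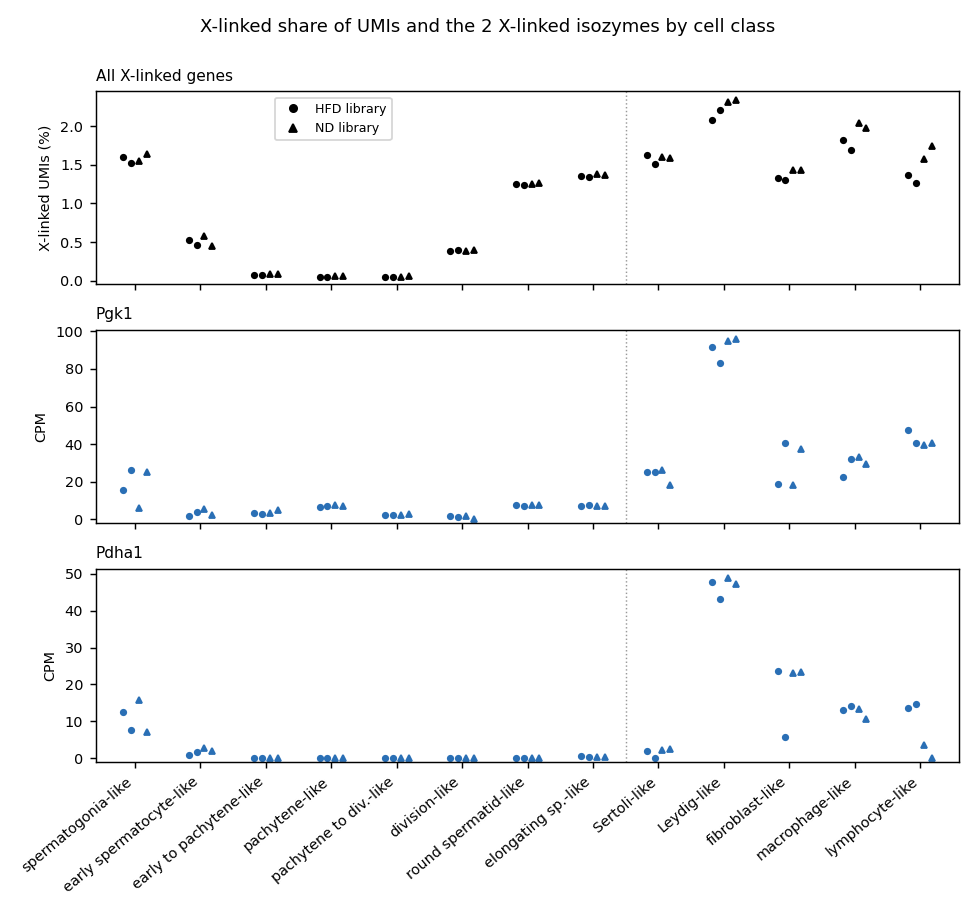
Share of UMIs from all X-linked genes (top, percent) and level of Pgk1 and Pdha1 (CPM) by cell class. Each point is 1 library (circles HFD, triangles ND), and the dotted line divides germ-cell from somatic classes. The X share is 0.0509% in pachytene-to-division-like cells and 1.26% in round-spermatid-like cells, where Pdha1 remains at 0.164 CPM.

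Ldha goes against the label of a somatic isozyme in these libraries. It was lowest in the germ line in spermatogonia-like cells, at 303 CPM (278 to 358), and highest of all 13 classes in pachytene-like cells, at 1350 CPM (1326 to 1365), a 4.45-fold difference. With the isozymes among the clustered genes it was highest in early-spermatocyte-to-pachytene-like cells instead. It was also highest there at Leiden resolution 0.5, where the pachytene-like class was not among those tested. In elongating-spermatid-like cells it stood at 348 CPM (337 to 369), 3.88-fold below the peak (3.68 to 3.99 in single libraries), where Ldhc was 1.77-fold below its own (1.75 to 1.79). Leydig-like cells, a somatic class, held 289 CPM (262 to 323). Across the 36 clusters the log2 levels of Ldha and Ldhc had a Pearson r of 0.852, given as a description, since clusters share libraries and depth.

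As a share of the UMIs of each pair, the germ-cell isozyme took more than 50% in 61 of 65 combinations of pair and class, as the plot of shares shows. This count includes the 5 somatic classes, whose germ-cell isozymes are set beside the germ-cell markers further below. How much of the shares in those classes was free RNA was not tested. In the whole testis the mean shares were 98.2% for Pgk2, 96.2% for Gapdhs, 90.1% for Ldhc, 99.7% for Pdha2 and 95.8% for Cyct. The 4 exceptions were Gapdhs in spermatogonia-like cells (32.2%), Cyct in Sertoli-like cells (38.1%), and Gapdhs (23.5%) and Cyct (34.0%) in Leydig-like cells. The Ldhc share was the most even of the 5, with class means, somatic classes included, between 87.3% and 94.3%. The Pgk2 share in Leydig-like cells lay at the line, with a mean of 50.4%. It was 52.0% in both HFD libraries and 49.5% and 48.0% in ND 1 and ND 2, and all 4 exact 95% intervals included 50%. The Cyct share in spermatogonia-like cells was 53.3%, and its exact 95% intervals reached from 37.98% to 70.9% over the 4 libraries.

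**Figure D3:**
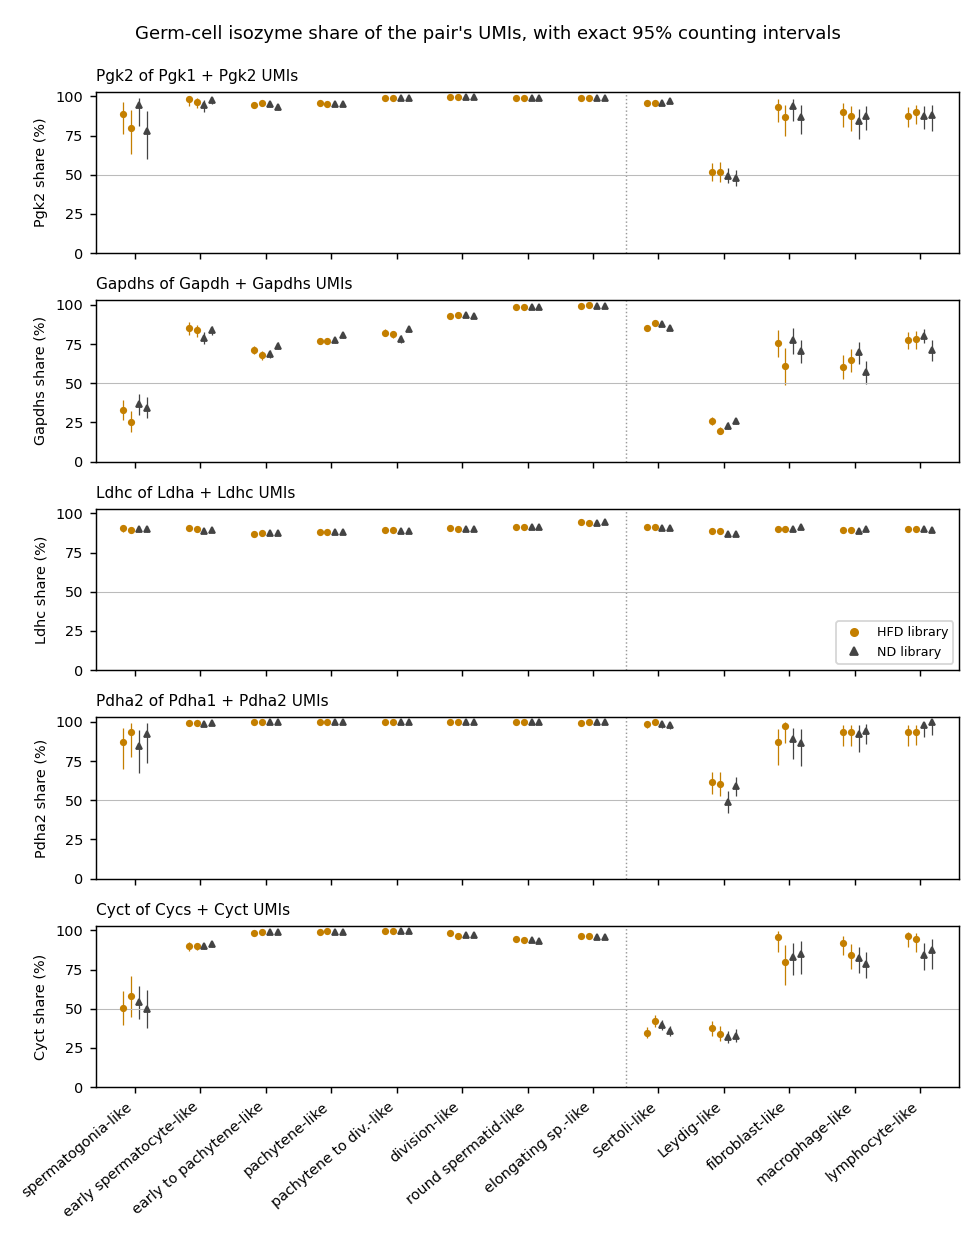
Share of the germ-cell isozyme among the UMIs of each pair, in percent, by cell class and library (circles HFD, triangles ND), with exact Clopper-Pearson 95% intervals that cover counting error only. The grey line marks an equal split and the dotted line divides germ-cell from somatic classes. How much of the shares in somatic classes was free RNA was not tested. Ldhc stays between 87.3% and 94.3% in the class means, while Gapdhs and Cyct drop below the line in Leydig-like cells.

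Cells that held UMIs of both isozymes were frequent for the LDH pair. With every cell thinned to 1500 UMIs, 87.1% of pachytene-like cells held both Ldha and Ldhc (99.7% unthinned), and 64.5% of round-spermatid-like cells did (99.1% unthinned). The thinned share was over 50% in 10 of 65 combinations of pair and class, all of them with the LDH pair, and 4 of these were somatic classes (56.3% to 66.8%). Median depths were 24732 UMIs in pachytene-like cells and 2735 in Sertoli-like cells. For the other 4 pairs, cells with both isozymes made up at most 1.76% of any germ-cell class from early-spermatocyte-like cells onward, once thinned. In spermatogonia-like cells 12.9% held both Gapdh and Gapdhs (47.2% unthinned), close to the 9.96% to 16.3% of the 5 somatic classes, which should lack Gapdhs.

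In the somatic classes the somatic isozymes other than Ldha stood higher, relative to the whole testis, than the germ-cell isozymes did. Leydig-like cells, the steroid-producing class (1185 cells), held Pgk1 at 91.4 CPM (83.1 to 95.8), Gapdh at 574 CPM (549 to 611) and Pdha1 at 46.8 CPM (43.3 to 48.9), the highest means of the 13 classes for all 3 genes. Pgk1 was 12.1-fold and Gapdh 54.5-fold above round-spermatid-like cells. Cycs was highest in Sertoli-like cells, the nurse cells of the tubule (1343 cells), at 318 CPM (274 to 362), and stood at 181 CPM (174 to 192) in Leydig-like cells. These ranges did not overlap.

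The germ-cell isozymes in somatic classes were set beside the germ-cell markers. In the whole testis most of this marker sum comes from the elongating-spermatid markers. It is therefore not matched to isozymes that peak in spermatocytes, such as Ldhc, Pdha2 and Cyct. In Leydig-like cells the 81 germ-cell markers summed to 22.8% of their whole-testis level, and the 5 germ-cell isozymes stood at 21.1% to 29.4% of theirs. In lymphocyte-like cells (326 cells) these figures were 88.3% and 73.5% to 99.6%, and in macrophage-like cells 54.0% and 46.6% to 81.9%. The marker sum thus lay within the range of the isozymes in these 3 classes. In fibroblast-like cells it lay below, at 49.0% against 56.6% to 75.5%. In Sertoli-like cells it lay above, at 223% against 52.3% to 160%, with the elongating-spermatid markers at 284%. The origin of this RNA was not tested. Ldha stood with the germ-cell isozymes, at 32.3% of its whole-testis level in Leydig-like cells and 62.3% to 85.0% in the other 4 somatic classes. The other 4 somatic isozymes stood at 176% to 5004% of theirs in these classes, as the plot of somatic classes shows. The 176% is that of Pdha1 in Sertoli-like cells, at only 1.65 CPM (0 to 2.42).

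**Figure D4:**
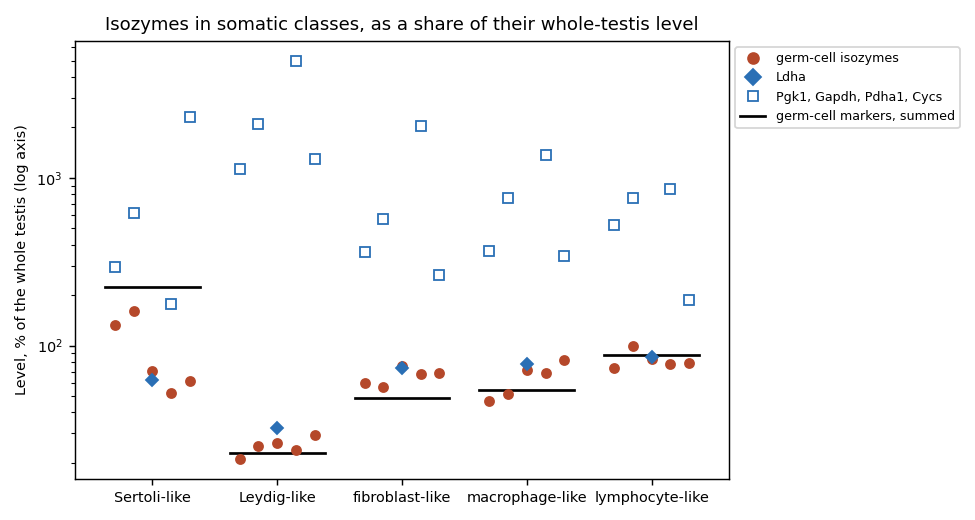
Level of each isozyme in 5 somatic classes as a percentage of its whole-testis level, on a log axis. Red circles are the germ-cell isozymes, the blue diamond is Ldha, open squares are the other somatic isozymes, and the black bar is the sum of 81 germ-cell markers. Most of that sum in the whole testis comes from elongating-spermatid markers. In Leydig-like cells the red circles (21.1% to 29.4%) lie at the bar (22.8%) and the open squares reach 5004%.

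Other enzymes of the same pathways were followed with 4 lists, and the list genes whose levels are given here were chosen after their values were seen. Among the 24 glycolysis genes Hk1, which phosphorylates glucose, and Gpi1, the next enzyme, were highest in elongating-spermatid-like cells at 589 and 552 CPM. Of the 19 glycolysis genes that reached 20 CPM, 13 were highest in a germ-cell class and 5 of these in elongating-spermatid-like cells. The testis aldolases Aldoart1 and Aldoart2 stood at 2.8 and 10.2 CPM in pachytene-to-division-like cells and at 109 and 397 CPM in round-spermatid-like cells. Pgam2, a mutase, exceeded 890 CPM from early-spermatocyte-to-pachytene-like cells onward, while its somatic relative Pgam1 was highest in Leydig-like cells at 497 CPM. Ldhb, the heart-type LDH subunit, was the reverse of Ldha, at 556 CPM in Leydig-like and 424 CPM in Sertoli-like cells and 0.9 to 2.2 CPM from early-spermatocyte-to-pachytene-like cells onward. Ldhal6b, an intronless LDH gene, peaked at 2058 CPM in pachytene-to-division-like cells.

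Some partners of Pdha2 and Cyct were highest in the same class as they were. Of the genes that reached 20 CPM, 6 of 10 in the PDH list were highest in a germ-cell class, 2 of them in early-spermatocyte-to-pachytene-like cells. Of 14 cytochrome c partners 9 were highest in a germ-cell class, 4 of them in that one, and the other 5 were highest in Leydig-like cells. Pdhb and Dlat, subunits that join the PDH complex, were highest in early-spermatocyte-to-pachytene-like cells at 277 and 236 CPM, as were Uqcrc1 and Uqcrc2 of respiratory complex III at 509 and 358 CPM. In the enzyme that cytochrome c feeds, the testis subunits Cox6b2 and Cox8c were also highest there, at 1647 and 3462 CPM. The nuclear-encoded subunits Cox4i1, Cox5b and Cox6a1 of the same enzyme, and Dld of the PDH complex, were highest in Leydig-like cells instead, at 1938, 698, 1121 and 133 CPM. The somatic counterparts of the testis subunits, Cox6b1 and Cox8a, were also highest there, at 747 and 1220 CPM, and stood at 46.5 and 21.0 CPM in early-spermatocyte-to-pachytene-like cells. Hccs, the X-linked enzyme that attaches haem to cytochrome c, stood at 73.1 CPM in spermatogonia-like cells and 0.7 CPM in that class.

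Other X-linked parent genes with autosomal copies were set beside Pgk and Pdha. Rpl10, a ribosomal protein gene on X, went from 218 CPM in spermatogonia-like cells to 1.9 CPM in early-spermatocyte-to-pachytene-like cells, where its copy Rpl10l stood at 181 CPM. The X-linked polyadenylation factor Cstf2 went from 52.4 to 2.1 CPM and stood at 55.2 CPM in round-spermatid-like cells, and its copy Cstf2t went from 50.9 CPM in early-spermatocyte-to-pachytene-like cells to 4.0 CPM in round-spermatid-like cells. Of the 6 X-linked genes of this list, Cstf2 was the 1 whose level in round-spermatid-like cells reached that in spermatogonia-like cells. The other 5 stood lower there, as Pdha1 did: Utp14a at 28.3 against 40.8 CPM, Taf7l at 24.1 against 298 CPM, Rpl10 at 5.5 against 218 CPM, Rbmx at 2.4 against 10.1 CPM and Gk at 0.64 against 7.6 CPM.

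Genes with the most similar pattern over the 36 clusters were ranked among 8550 genes by Pearson correlation of log2(CPM + 1). This is a description, since clusters share libraries and depth. Gapdhs was most like Akap4, the main fibrous sheath protein (r = 0.984), then Gsg1 and Spert. Pgk2 was most like Hk1 (0.946), Dbil5 and Akap12. Ldhc was most like the centrin Cetn1 (0.971), Spata4 and Adam5, and Ldha was most like Fbp1 (0.954), Cenpv and Ldhal6b. Cyct was most like the testis chaperone gene Hspa2 (0.932), Tuba3b and Fyttd1, and Pdha2 was most like Gtf2a2 (0.902), Cox6b2 and B9d1. For the somatic members the leading genes were Psme2, Tubb5 and Spr for Gapdh (0.955), Slc35b2, Etfa and Hspe1 for Cycs (0.900), Mcts1, Eci1 and Pcmtd1 for Pdha1 (0.911), and Tpm3, Abracl and Tpt1-ps3 for Pgk1 (0.784). Akap4 and Hspa2 are also among the markers that named the classes.

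Between the diets, the sums over whole libraries differed for most of the isozymes and the sums within classes for few. In the whole testis 7 of 10 were called by edgeR's quasi-likelihood test (Benjamini-Hochberg adjusted p below 0.05), 5 lower and 2 higher in HFD. Of all 25482 genes tested, 34.3% were called, 18.9% lower and 15.3% higher. The median log2 ratio of HFD over ND was −0.15 over the 10 isozymes and −0.02 over all genes tested. Levels of single genes here are CPM after scaling by edgeR, whereas marker sums and their ratios are from CPM over plain totals. Fewer cells of a type and less RNA per cell cannot be told apart in such sums alone. Shares of kept cells, in HFD 1 and HFD 2 against ND 1 and ND 2, differed too. They were 19.35% and 19.3% against 24.2% and 24.34% for round-spermatid-like cells, and 16% and 16.26% against 18.09% and 17.09% for elongating-spermatid-like cells. Leydig-like cells made up 1.62% and 1.76% against 2.53% and 2.64%, and pachytene-like cells 7.87% and 9.53% against 6.41% and 6.88%. Unnamed cells made up 37.67% and 33.23% against 30.68% and 30.84%, so the shares of named classes give only a part of the difference in cells.

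Gapdhs stood at 658 and 613 CPM in HFD 1 and HFD 2 and at 757 and 770 CPM in ND 1 and ND 2. Both HFD libraries were below both ND libraries, with a log2 ratio of −0.26 ± 0.04 (SE, adjusted p = 0.00016). Pgk2 showed 420 and 408 CPM in HFD against 473 and 456 CPM in ND, with a ratio of −0.17 ± 0.04 (adjusted p = 0.0034). The summed elongating-spermatid markers moved with these genes, from 32497 to 34174 CPM in ND and 27010 to 29441 CPM in HFD, a log2 ratio of −0.24. Their part in the result was not tested by itself, since the fit with fixed cluster shares given below fixes all clusters at once.

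Cycs stood at 12.4 and 11.8 CPM in HFD and 15.1 and 16.2 CPM in ND, a ratio of −0.37 ± 0.06 (adjusted p = 0.00015). Gapdh stood at 25.2 and 25.7 CPM in HFD and 28.8 and 29.8 CPM in ND, a ratio of −0.20 ± 0.05 (adjusted p = 0.0027). For both genes the diets did not overlap. Among the other classes where these genes were high, the summed markers of Leydig, Sertoli and macrophage cells had log2 ratios of −0.63, −0.40 and −0.39. Those of spermatogonia, the class next to Leydig-like cells for Gapdh, had 0.06 and those of lymphocytes 0.02. Pdha1 stood at 0.892 and 0.717 CPM in HFD and 1.09 and 1.04 CPM in ND, a ratio of −0.40 ± 0.15 (adjusted p = 0.047). This call was lost with DESeq2 (adjusted p = 0.22), without the filter on low counts (0.11) and with a mitochondrial limit of 10% (0.057), and limma on log2(CPM + 1) gave −0.20 (0.036).

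The LDH pair was higher in HFD. Ldha stood at 937 and 941 CPM in HFD and 852 and 857 CPM in ND, a ratio of 0.14 ± 0.04 (adjusted p = 0.0073). Ldhc stood at 8482 and 8349 CPM in HFD and 7814 and 7871 CPM in ND, a ratio of 0.10 ± 0.03 (adjusted p = 0.029). Both HFD libraries were above both ND libraries for each gene, and the summed pachytene markers had a log2 ratio of 0.13. Pgk1 (−0.13 ± 0.06), Pdha2 (0.02 ± 0.04) and Cyct (0.08 ± 0.04) did not pass, with adjusted p of 0.13, 0.78 and 0.15.

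Without HFD 2, 3 isozymes were called rather than 7, and 18.8% of all genes. Pgk2, Ldha, Ldhc and Pdha1 then had adjusted p of 0.061, 0.070, 0.13 and 0.34, and Ldhc had 0.21 without HFD 1 and Pdha1 0.075 without ND 1. By limma on log2(CPM + 1), with cells summed as they were, 6 of the 10 and 34.1% of all genes were called, and Ldhc was not (0.10, adjusted p = 0.19). The same limma fit was then made with the share of UMIs from each cluster fixed at its mean over the 4 libraries, an alternative added after these results were seen. It called 0 of the 10, with 1 at an unadjusted p below 0.05, and 1.33% of all genes. Between these limma fits the log2 ratio of Gapdhs went from −0.26 to −0.07 ± 0.03 (adjusted p = 0.31), that of Cycs from −0.34 to −0.10 ± 0.05 (0.39) and that of Pdha1 from −0.20 to 0.0038 ± 0.064 (0.99). The plot of diet changes sets the fixed-share values beside those of edgeR.

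**Figure D5:**
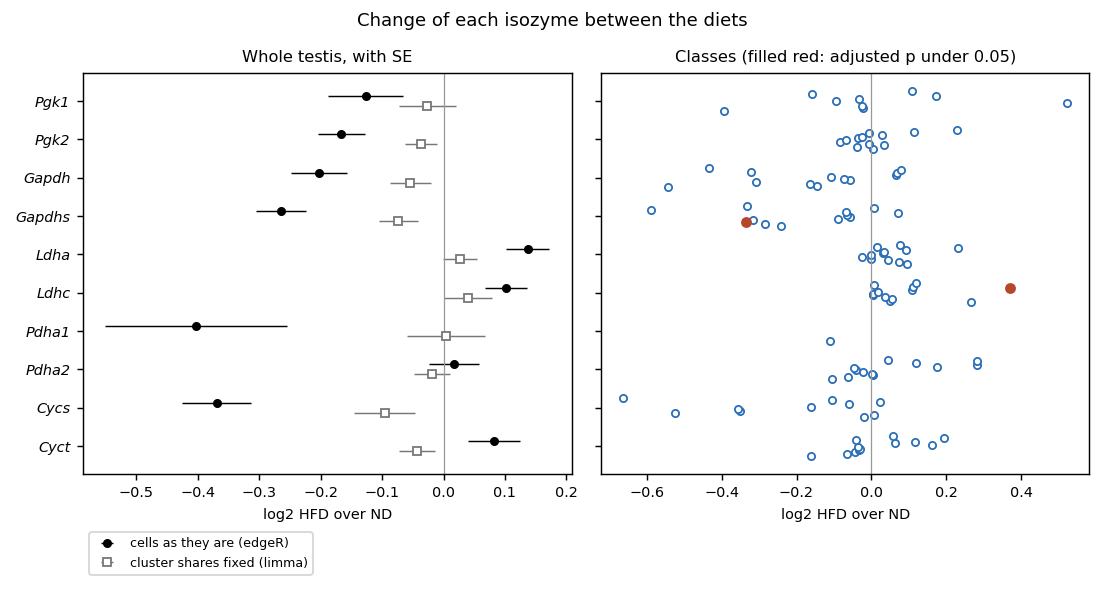
Left, log2 ratio of HFD over ND in the whole testis with its SE, for cells summed as they are (filled, edgeR) and with cluster shares fixed (open squares, limma). Right, the ratio in each tested cell class, with the 2 called values (adjusted p below 0.05) filled in red. Gapdhs moves from −0.26 to −0.07 when shares are fixed, and most class values lie near 0.

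Within classes, 104 tests of an isozyme in 12 classes gave 2 calls, and 13 reached an unadjusted p below 0.05. Over all genes of these classes 1.28% of the tests were called and 12.3% reached an unadjusted p below 0.05. Spermatogonia-like cells were not tested, since 1 library held only 47. Without ND 1 there were 7 calls, in a fit that called 3.64% over all genes. Isozymes that did not pass the filter on low counts were Pdha1 in 11 classes, Pgk1 in 3 and Cycs in 2.

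Gapdhs in pachytene-like cells stood at 64.1 and 64.7 CPM in HFD and 73.3 and 89.0 CPM in ND. ND 2 was the highest library, and the diets did not overlap. The log2 ratio was −0.33 ± 0.06 (edgeR adjusted p = 0.010), in a class where 2.04% of 16060 genes were called. The elongating-spermatid markers, at 2238, 2136, 2306 and 2926 CPM in HFD 1, HFD 2, ND 1 and ND 2, also had their highest value in ND 2, with a log2 ratio of −0.26, and their part in the result was not tested. Without ND 2 the Gapdhs ratio was −0.19 (adjusted p = 0.072), DESeq2 gave −0.33 with an adjusted p of 0.36, and without the filter on low counts the adjusted p was 0.56. Ratios between −0.24 and −0.59 that did not pass were seen in germ-cell and somatic classes. They were −0.29 ± 0.07 (adjusted p = 0.089, background 0.394%) in early-spermatocyte-to-pachytene-like and −0.32 ± 0.09 (adjusted p = 0.098, background 0.626%) in pachytene-to-division-like cells. In fibroblast-like cells the ratio was −0.59 ± 0.20 (adjusted p = 0.22), and in lymphocyte-like cells it was −0.33 ± 0.20 (adjusted p = 0.95). Early-spermatocyte-like cells had a ratio of −0.24 ± 0.12 (adjusted p = 0.64). In the other classes it lay nearer 0, at −0.09 in division-like, −0.06 in round-spermatid-like, 0.07 in Sertoli-like, −0.07 in Leydig-like and 0.0068 in macrophage-like cells. In elongating-spermatid-like cells, where Gapdhs was most abundant, it stood at 2890 and 2768 CPM in HFD and 2893 and 3029 CPM in ND. The ratio there was −0.07 ± 0.04 (adjusted p = 0.47), with 4.18% of genes called.

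Ldhc in Leydig-like cells stood at 2556 and 2309 CPM in HFD and 1847 and 1919 CPM in ND. The diets did not overlap, and the log2 ratio was 0.37 ± 0.08 (edgeR adjusted p = 0.0030), where 3.56% of 11687 genes were called. All 81 germ-cell markers together stood at 12519 and 8463 CPM in HFD and 8255 and 9620 CPM in ND, a log2 ratio of 0.23 with HFD 1 highest, and their part in the result was not tested. In the whole testis most of this sum is from elongating-spermatid markers, whereas Ldhc was highest in pachytene-like cells. Without HFD 1 the Ldhc ratio was 0.29 (adjusted p = 0.058), and with a sub-cluster of 108 cells mostly from HFD 1 added to the class it was 0.53 (adjusted p = 0.22). With the isozymes and lists among the clustered genes it was 0.61 (adjusted p = 0.17).

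In the other 10 classes tested, 0 of 85 tests of an isozyme were called by edgeR, 0 by DESeq2 and 0 by limma, and 9 reached an unadjusted p below 0.05, as did 11.5% of the tests of all genes there. The share of all genes called was 0% in early-spermatocyte-like cells (802 genes at an unadjusted p below 0.05) and 0% in Sertoli-like cells (572 genes). It was 0.23% in division-like, 0.59% in round-spermatid-like, 0.224% in fibroblast-like, 1.4% in macrophage-like and 0.293% in lymphocyte-like cells. Over its 12 classes Pgk2 ranged from −0.09 to 0.23 in log2 ratio, Ldha from −0.03 to 0.23, Pdha2 from −0.10 to 0.28 and Cyct from −0.16 to 0.19. The scarcer somatic isozymes spread further, Gapdh from −0.54 to 0.08 over 12 classes, Cycs from −0.66 to 0.02 over 10 and Pgk1 from −0.39 to 0.52 over 9. For Gapdh the ratio was −0.54 ± 0.18 in early-spermatocyte-like cells (adjusted p = 0.41) and −0.31 ± 0.10 in pachytene-to-division-like cells (adjusted p = 0.21), and for Cycs it was −0.53 ± 0.17 in pachytene-like cells (adjusted p = 0.12) and −0.66 ± 0.40 in macrophage-like cells (adjusted p = 0.74). None of these 4 passed the test. The diets did not overlap in them, which with 2 libraries per diet has an exact permutation p of 0.33. The germ-cell share of a pair was compared over libraries by a two-sided exact permutation test, which with 2 libraries per diet cannot go below 0.33. The shares of the diets did not overlap in 24 of 65 combinations of pair and class (36.9%). That is near the share of 0.33 that diet labels set at random would give. In Leydig-like cells, for instance, the HFD libraries had a Pdha2 share of 61.0% ± 0.506 (SD, n = 2) and the ND libraries one of 54.0% ± 6.96 (exact permutation p = 0.33).

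Of the pathway lists, glycolysis genes in the whole testis were called lower in 11 of 22 cases and higher in 3, with a median log2 ratio of −0.21, against 18.9% lower and 15.3% higher of all genes. Pfkm, a phosphofructokinase, rose from 55.0 and 56.7 CPM in ND to 63.6 and 63.0 CPM in HFD. The PDH list had 3 of 13 lower and 1 higher, the cytochrome c partners 3 of 15 lower and 4 higher. In the list of X-linked parents and their copies 7 of 13 were lower and 3 higher. There Rpl10 fell from 27.8 and 27.6 CPM in ND to 18.7 and 19.1 CPM in HFD, and Cstf2 from 28.4 and 29.3 CPM to 21.4 and 19.97 CPM, while Taf7 rose from 29.9 and 28.7 CPM to 33.3 and 34.0 CPM. Of these 63 list genes 35 were called by edgeR, 34 by limma and 2 by limma with cluster shares fixed. Cstf2 kept its call there (−0.18, adjusted p = 0.032, against −0.46 by limma with cells as they were). The other 3 lost theirs: Rpl10 went from −0.53 to −0.16 (adjusted p = 0.10), Pfkm from 0.18 to 0.042 (0.51) and Taf7 from 0.20 to 0.048 (0.57).

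Within classes 13 of 586 tests of a list gene passed, against 1.28% of the tests of all genes. Tpi1, the triose phosphate isomerase next to GAPDH in glycolysis, passed in 3 neighbouring classes. In pachytene-like cells it stood at 177 and 176 CPM in HFD and 218 and 214 CPM in ND, a ratio of −0.30 ± 0.04 (edgeR adjusted p = 0.00029) with no overlap. In early-spermatocyte-to-pachytene-like cells its ratio was −0.30 ± 0.04 (adjusted p = 0.00090) and in pachytene-to-division-like cells −0.29 ± 0.04 (adjusted p = 0.00083). The last had an adjusted p of 0.11 without HFD 1, without HFD 2 and without the filter on low counts, and in pachytene-like cells it was 0.27 without that filter. The elongating-spermatid markers had ratios of −0.19 to −0.26 in these 3 classes, and their part in the result was not tested.

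The rule for naming list genes gave 9 further results. Lower in HFD were Aldoa in early-spermatocyte-to-pachytene-like cells (−0.41 ± 0.08), Gpi1 in pachytene-to-division-like cells (−0.35 ± 0.08), Rbmxl2 in round-spermatid-like cells (−0.21 ± 0.04), Cstf2 (−0.35 ± 0.08) and the PDH kinase Pdk3 (−0.24 ± 0.07) in elongating-spermatid-like cells, and Cox6a1 in Leydig-like cells (−0.34 ± 0.08). Higher in HFD were Rpl10l in pachytene-like cells (0.17 ± 0.04), Cox8c in elongating-spermatid-like cells (0.17 ± 0.05) and Ldhal6b in Leydig-like cells (0.30 ± 0.09), where the germ-cell markers had a ratio of 0.23 and their part in the result was not tested. Gpi1 stood at 23.2 CPM in its class and at 552 CPM in elongating-spermatid-like cells. Cox8c stood at 829 CPM in its class and at 3462 CPM in early-spermatocyte-to-pachytene-like cells. The part of RNA from other cells in these results was not tested. All 9 lost their call without at least 1 of the libraries. Over all alternatives run, Rpl10l kept its call in 2 of 13, Gpi1 in 5 of 14, Ldhal6b in 6 of 15, Pdk3 in 7 of 15, Aldoa in 8 of 13, Rbmxl2 in 9 of 15, Cox6a1 in 10 of 15, Cstf2 in 11 of 15 and Cox8c in 12 of 15. The highest adjusted p was 0.785, for Gpi1 by DESeq2. Without HFD 1 the adjusted p was 0.064 for Rpl10l, 0.47 for Gpi1, 0.24 for Rbmxl2, 0.37 for Ldhal6b and 0.11 for Cox6a1. Without HFD 2 it was 0.30 for Rpl10l, 0.34 for Gpi1, 0.32 for Rbmxl2, 0.23 for Aldoa, 0.39 for Cstf2 and 0.40 for Pdk3. Without ND 1 it was 0.29 for Cox8c, 0.21 for Pdk3, 0.30 for Ldhal6b and 0.073 for Cox6a1, and without ND 2 it was 0.065 for Aldoa, 0.26 for Rpl10l, 0.18 for Gpi1 and 0.074 for Ldhal6b. The number of list genes called was 6 without HFD 1 and 33 without ND 1, where 0.667% and 3.64% of the tests of all genes were called.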

How the data were processed

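For each library the authors deposited a sparse matrix of UMI counts, not normalized, with genes and cell barcodes, written by software version 3.0.2 per the file headers. The genome build was mm10 per the submitters' processing notes, and the aligner and annotation are not given in the sources used here. All gene identifiers matched GENCODE M21, which gave the coordinates. Deposited dense tables of the same counts were not used here.

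Kept were barcodes with 200 or more genes and no more than 20% of UMIs from mitochondrial genes. Doublets called by Scrublet (scanpy 1.11.5, expected rate 0.1; 3.36% to 6.06% of barcodes) were removed. All libraries were clustered together on 2000 variable genes without the isozymes and list genes (30 principal components, 15 neighbours, Leiden resolution 1). Fixed marker lists then gave the clusters their names. The members, lists and markers were chosen with earlier results of these data known. A sub-cluster mostly of 1 library and another beside it were kept out of the Leydig-like class by a rule set after the data were seen.

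UMI counts were summed per library and class with at least 50 cells in every library, after which edgeR 4.0.16 (R 4.3.3) was run with its quasi-likelihood test, TMM factors and the filterByExpr filter. Benjamini-Hochberg adjustment was made over all genes of a class, with a threshold of 0.05. The library was the replicate. Of the list genes, up to 2 in each direction per class were named, those called with the largest ratio and a mean of at least 20 CPM. Exact Clopper-Pearson 95% intervals and the limits from a count of 0 (3 UMIs) cover counting error only. Alternatives were DESeq2 1.42.0, limma 3.58.1, no TMM factors, no filter, a replicate block, each library left out, doublets kept, a mitochondrial limit of 10%, Leiden resolutions of 2 and 0.5, isozymes and lists among the clustered genes, and clusters weighted equally. Only the edgeR fit was tried on simulated counts first, for pachytene-like and Leydig-like cells. The changes planted there were larger than those called for isozymes in these classes. DESeq2, limma and the other fits were not tried in this way.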

Additional observations from a re-analysis of the deposited data

How the results depend on the processing

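The number of isozymes called within classes was 2, and it was 1 with DESeq2, 4 with doublets kept and 0 of 33 tests when clusters were weighted equally, which only 4 classes allowed. Leaving out 1 library gave 2 to 7 within classes and 3 to 8 of 10 in the whole testis, where 7 were called, 6 by limma and 0 by limma with cluster shares fixed. The log2 ratio of Pdha1 was −0.40 by edgeR, −0.20 by limma and 0.0038 by limma with cluster shares fixed. Both limma values are from log2(CPM + 1), and the added 1 shrinks the ratio of a gene at 0.717 to 1.09 CPM. The edgeR and limma ratios of Pdha1 are therefore not on the same scale. Of all genes within classes 1.28% were called, and 0.402% with DESeq2, 2.77% with doublets kept, 1.62% with a mitochondrial limit of 10%, 2.6% at Leiden resolution 0.5, 0.128% with clusters weighted equally and 0.667% to 3.64% with 1 library left out. List genes called within classes numbered 13 of 586, and 6 with DESeq2, 31 with doublets kept, 23 with a mitochondrial limit of 10%, 22 at Leiden resolution 0.5, 0 of 198 tests with clusters weighted equally and 6 to 33 with 1 library left out. In the whole testis 35 of 63 were called, 24 to 38 with 1 library left out 34 by limma and 2 by limma with cluster shares fixed. Apart from the added 1 for Pdha1, the cause of these differences was not tested. Of 330 alternative values for 25 single results, 238 kept direction and call, 91 kept the direction without the call and 1 turned. The counts of germ-cell shares over 50%, of isozymes highest in a germ-cell class and of cell shares with both isozymes stayed within 1.5 times under each alternative run. The class with the highest level moved for 5 isozymes. With doublets kept, Gapdh was highest in spermatogonia-like cells (454 CPM) rather than Leydig-like cells. Cyct (843 to 859 CPM), Pdha2 (425 to 433 CPM), Ldhc (9628 to 9940 CPM) and Ldha (1296 and 1335 CPM) were highest in the neighbouring classes named above under 3, 3, 3 and 2 alternatives. For Ldhc and Ldha these include resolution 0.5, where the pachytene-like class was not among those tested. For Cyct and Pdha2 the early-spermatocyte-like class itself did not hold the same cells as in the main setting.

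Libraries of both diets carry the numbers 1 and 2, and the labels give these numbers no meaning. With the replicate block, 4 isozymes and 20 list genes were called within classes, where 2.24% of tests of all genes were called, and 6 isozymes and 40 list genes in the whole testis, where 38.8% were. Ldhc lost its calls, with an adjusted p of 0.088 in Leydig-like cells and 0.051 in the whole testis. Deviations of same-numbered libraries correlated at 0.18 in the whole testis and at −0.17 to 0.10 in the classes, lowest in Sertoli-like cells, where crossed pairs gave 48 calls over all genes against 0 with the numbers as labelled and 0 without a block.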
